A study of Mus musculus with 8 samples.

Results

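The cytosolic ribosomal protein genes were followed in mouse round and elongating spermatids labelled wild type (WT) or conditional knockout (KO) of Carm1. Members were the genes of the deposited table whose symbol starts with Rpl or Rps followed by a digit, together with Rpsa, Rplp0, Rplp1 and Rplp2. Of 98 symbols that met this pattern, 9 Rps6k kinases, 5 symbols with -ps and Rps19bp1 were left out, which left 83 of 16349 genes, 50 with Rpl and 33 with Rps symbols. All 83 had an entry in GENCODE M21, an annotation of the mouse build GRCm38, and 82 passed the filter for testing. Rps27, a small subunit protein, did not pass, with 1 to 12 reads in each library.

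The enzyme CARM1 methylates arginines of histones and other proteins and is known as a coactivator of transcription. The 8 libraries form 4 groups of 2, namely round WT, round KO-labelled, elongating WT and elongating KO-labelled spermatids, all from untreated C57BL/6 mice. Per the labels' protocols, each sample was pooled from 8 testes and purified by centrifugal elutriation, which separates cells by size and density. The libraries were poly A selected and made with a kit that does not mark strand. The Cre driver of the conditional knockout, the age of the mice and whether libraries of 1 group are separate animals are not in the labels, so each p-value reflects a spread between libraries that may be technical.

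The cytosolic ribosome is built from ribosomal RNA and from about equal amounts of each ribosomal protein of its small (Rps) and large (Rpl) subunit. In most mammalian cells the mRNAs of these proteins start with a run of pyrimidines, the terminal oligopyrimidine tract, through which mTOR signalling sets their translation. Spermatids are haploid cells that transcribe less and less as their nucleus condenses, and in male germ cells the X chromosome is silenced at meiosis, so that autosomal copies such as Rpl10l and Rpl39l are known to serve in place of X-linked Rpl10 and Rpl39.

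Recovered reads ranged from 17190962 to 23526694 per library, and none of the members was among the 50 most abundant genes. The deposited signal is a read count scaled by the authors with a size factor per library, and these factors ranged from 0.516 to 1.77. They were lower in elongating than in round libraries although the read totals were alike, and the 50 most abundant genes took 7.92% to 8.14% of reads in round and 31.3% to 34.2% in elongating libraries. Directions across stages, and of KO-labelled against WT in elongating cells, therefore turn on the scaling, and each is given with its value after scaling to the total count. That scaling moved the median of all tested genes from -0.07 to -0.61 in KO-labelled against WT elongating cells and from 0.01 to -1.42 in elongating against round WT cells, on the log2 scale. Each library is rescaled by a single factor, so a gene's place relative to the median gene stays nearly the same by construction. That this place is alike on both scales is therefore no further evidence. Libraries of a group differed by 1.37 to 2.31 in chi-square per gene, above sampling noise, and each counted as a sample. Values of all 4 groups are listed below in the order round WT, round KO-labelled, elongating WT, elongating KO-labelled. In this order the targeted gene Carm1 had signals of 1649 and 1686, 1174 and 1343, 4308 and 4534, and 8157 and 7993. In elongating cells Carm1 thus went against the label, by 0.87 (0.31 after total-count scaling), and since a count over the whole gene includes exons outside any deleted part, the libraries are called KO-labelled throughout.

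Ribosomal protein mRNA took a lower share of all reads in elongating than in round libraries, while its summed deposited signal was higher there. The members took 0.953% and 0.956%, 0.997% and 0.984%, 0.874% and 0.859%, and 0.735% and 0.733% of reads over the 4 groups, in the order given above. Without the 50 most abundant genes in the total, the shares were 1.04% and 1.04%, 1.08% and 1.07%, 1.27% and 1.25%, and 1.12% and 1.11%. The order of the groups thus changed with the total, and the elongating KO-labelled libraries were below the elongating WT libraries under both. The summed deposited signal was 104194 and 105021, 116080 and 114871, 263828 and 261220, and 332352 and 325111 in these groups. No library overlapped a library of another group on this scale. In bulk samples, fewer cells of a type and less RNA per cell cannot be told apart.

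**Figure D1:**
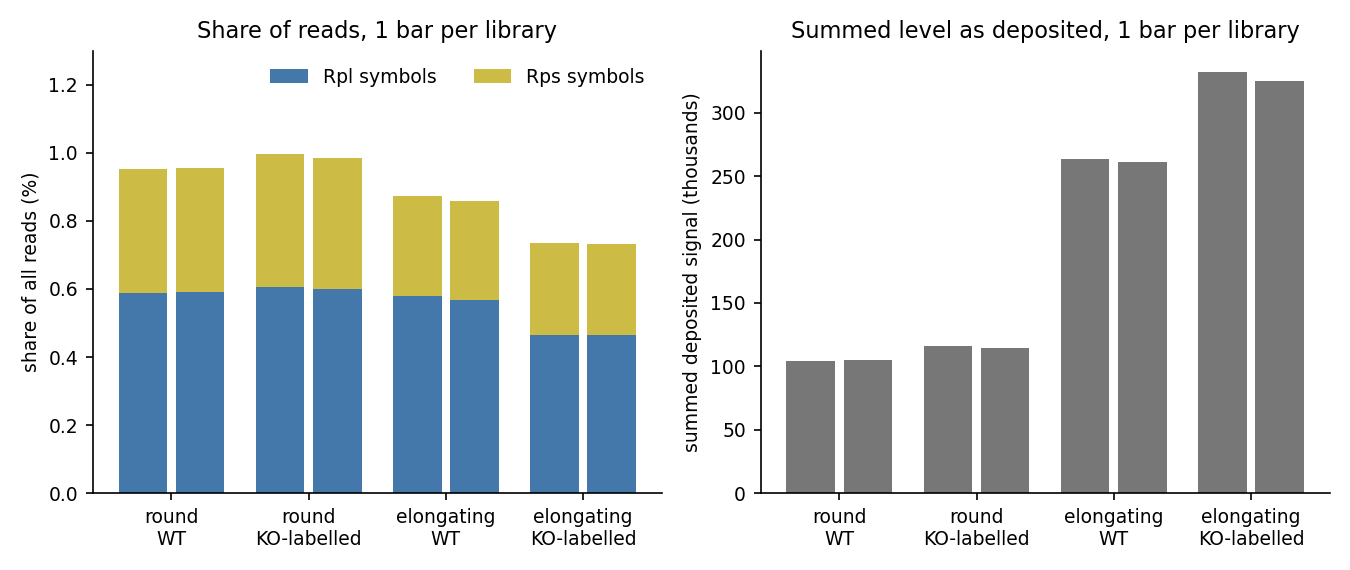
Left, the percentage of all reads that fell on the 83 ribosomal protein genes, split into Rpl and Rps symbols; right, their summed deposited signal in units of 1000; each bar is 1 library. The share was lowest in the elongating KO-labelled libraries (0.735% and 0.733%), where the summed signal was highest (332352 and 325111), a difference that comes with the authors' size factors.

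The members did not have equal mRNA levels. Per kilobase of transcript, the highest deposited signal in round WT cells was that of Rpl41, which encodes the shortest ribosomal protein, at 6534, followed by Rps29 at 4749, Rpl32 at 4555 and Rplp0 at 4300. The lowest were Rpl30 at 9.83, Rps4x at 15.4, Rpl37rt at 16.9 and Rps27 at 18.04 per kilobase. Rpl41 also led in elongating WT cells at 62465 per kilobase, ahead of Rpl32 at 16174 and Rpl36 at 15485. These ranks depend on the annotated transcript chosen for each gene. The transcript used for Rps20 holds 3706 bases, of which 357 are coding. Its mean signal of 13413 in elongating WT cells thus became 3619 per kilobase. Not per length, 54 members had a mean signal of at least 1000 in round WT, 22 lay from 100 to 1000, 4 from 10 to 100 and 3 under 10, and the corresponding counts in elongating WT cells were 58, 19, 5 and 1.

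Most members have near-identical copies elsewhere in the genome. Of the 83 members, 76 had at least 1 annotated pseudogene that matched at least 80% of the coding sequence at 95% identity or more, 16 had 10 or more, the median was 4, and Rpl21 had the most with 56. How the authors' counting treated reads that match several places is not given in the sources used here, so levels of these members are uncertain, and their part in the results was not tested. Across members the Spearman correlation of the level per kilobase with the number of copies was 0.18 in round WT and 0.20 in elongating WT cells (n = 83 genes that share each library), a description only. Rpl39l, Rps4l, Rps27l and Rplp2 were among the 7 members with no such copy. Exons of Rpl12, Rpl31, Rpl5, Rpl18, Rpl15, Rpl35 and Rpl22l1 overlap those of a neighbouring gene, and without strand the reads of such genes cannot be told apart.

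The tract at the start of these mRNAs was looked up in RefSeq promoter windows of GRCm38.p6, which cover 250 bases before and 50 after the annotated start. A tract was called where the first transcribed base is C and at least 4 further bases are C or T, read on the sense strand at the annotated start only. It was found in 13 of 62 members with a window (20.97%), against 380 of 12382 genes of the table (3.07%). No match says only that these letters are not at this annotated start. The following lines show 20 bases before and 16 from the start of 4 of the 13, with the tract in capitals; they were chosen after their values were seen, since 2 of them were higher and 2 lower in elongating KO-labelled than in WT cells.
Rpl35 chr2:39005116-39005151, minus strand: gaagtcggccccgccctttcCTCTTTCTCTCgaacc
Rps6 chr4:86857352-86857387, minus strand: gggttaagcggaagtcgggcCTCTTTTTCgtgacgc
Rpl35a chr16:33056462-33056497, plus strand: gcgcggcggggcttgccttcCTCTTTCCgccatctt
Rpl15 chr14:18270971-18271006, minus strand: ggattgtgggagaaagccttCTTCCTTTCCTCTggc
The tracts are 11, 9, 8 and 13 bases long in this order. Of the 12 tested members with a tract, 4 were called higher, 4 lower and 4 not called in KO-labelled against WT elongating cells, close to the 27.3% of all tested genes called higher and 27.7% called lower; of 49 members without it, 25 were higher, 14 lower and 10 not called. The medians were 0.02 and 0.12 on the log2 scale (-0.54 and -0.44 after total-count scaling).

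In wild type, most ribosomal protein mRNAs were higher in elongating than in round spermatids on the deposited scale, and lower on the total-count scale, on which the median gene fell further. Of 82 tested members 65 were called higher and 9 lower (39 and 6 of 50 Rpl, 26 and 3 of 32 Rps symbols), beside 41.7% of all tested genes called higher and 40.2% called lower. After total-count scaling 18 were higher and 58 lower, beside 19.5% and 68.8% of all genes. The median change of the members was 0.88 on the log2 scale against 0.01 for all tested genes, and -0.58 against -1.42 after total-count scaling. Above the median gene lay 71 of 82 members, a count that the scaling can hardly change. In the same comparison 13 of 13 Sertoli cell markers, 12 of 12 macrophage markers, 9 of 10 peritubular and vascular markers and 13 of 16 spermatid markers were higher and 11 of 14 spermatocyte markers lower; their part in the result was not tested. The call was made with limma at a Benjamini-Hochberg adjusted p under 0.05 over 15685 genes, with fold changes on log2(value + 1), which understates changes of low genes.

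Rpl41 had the largest signal in elongating cells. It was at 3613 and 3496 in round WT and at 33803 and 34159 in elongating WT libraries, a log2 change of 3.26 (SE 0.03, adjusted p = 2.7e-19) that was 1.79 after total-count scaling. Its groups stood far apart, and it rose on both scales. Rps20, a protein of the small subunit head, went from 2321 and 2317 to 13515 and 13311, by 2.53 (SE 0.04, adjusted p = 4.9e-17; total-count 1.07).

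The P stalk is the arm of the large subunit that recruits elongation factors, and it is made of P0, P1 and P2. Rplp1 rose from 1531 and 1312 in round WT to 7777 and 7444 in elongating WT libraries, by 2.42 (SE 0.06, adjusted p = 3.6e-15; total-count 0.96). Rplp0, at 5696 and 5984 against 12334 and 12071, and Rplp2, at 762 and 809 against 1366 and 1399, were higher by 1.06 and 0.82 as deposited and had total-count values of -0.40 and -0.65. The 3 genes were thus all called higher on the deposited scale, with only Rplp1 higher on both.

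A smaller group fell on both scales. Rps4l, an autosomal copy related to Rps4x that GENCODE lists as a transcribed processed pseudogene, went from 1054 and 1078 in round WT to 425 and 381 in elongating WT libraries, a change of -1.40 (SE 0.07, adjusted p = 2.7e-11; total-count -2.87). Rps27l, the paralog of Rps27, fell from 197 and 191 to 91.5 and 96.6, by 1.04 (SE 0.21, adjusted p = 0.00038; total-count -2.49). Rpl10l, the autosomal stand-in for Rpl10, went from 1542 and 1470 to 822 and 790, a change of -0.90 (total-count -2.37), and Rpl4 from 2314 and 2346 to 1405 and 1317, a change of -0.78 (total-count -2.24). In none of these 4 genes did round and elongating WT libraries overlap.

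The same comparison in KO-labelled cells gave 55 members higher and 17 lower, beside 42.6% and 41.8% of all tested genes. Total-count scaling turned this to 13 higher and 62 lower, beside 16.7% and 72.8%. The median was 0.93 against 0.01 for all genes (-1.01 against -1.87 after total-count scaling), with 60 of 82 above the median gene. Rps4x, Rpl41, Rps20 and Rplp1 again changed most upward, by 3.33, 3.16, 3.04 and 2.77 (total-count 1.44, 1.22, 1.10 and 0.83). Rps27l, Rpl22l1, Rps4l and Rpl5 changed most downward, by -2.28, -1.91, -1.86 and -1.61 (total-count -4.17, -3.82, -3.80 and -3.54).

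**Figure D2:**
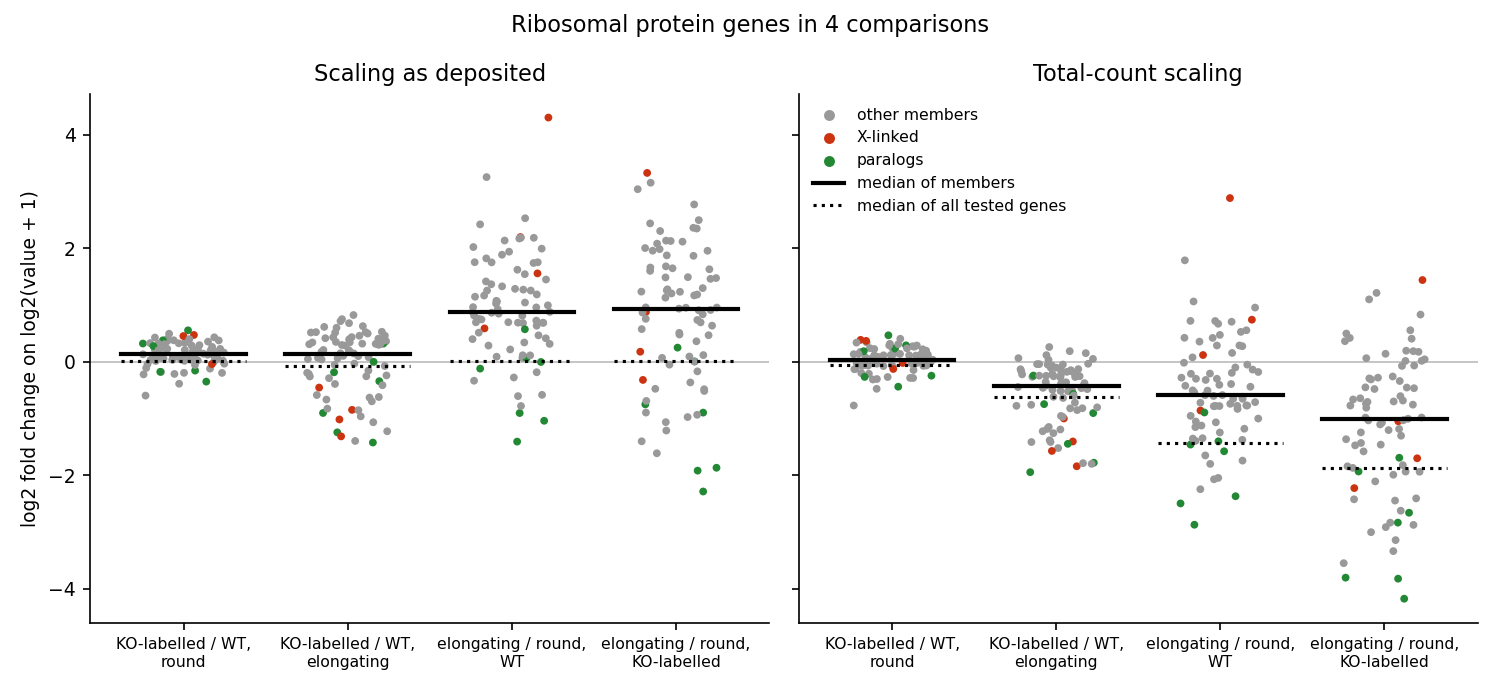
Log2 fold changes of the 82 tested ribosomal protein genes in 4 comparisons, as deposited (left) and after total-count scaling (right); each point is a gene, X-linked genes are red and paralogs green, solid lines are member medians and dotted lines the medians of all tested genes. The stage medians of 0.88 and 0.93 turned to -0.58 and -1.01 after total-count scaling. The member medians lay above those of all tested genes in all 4 comparisons, an order that the scaling can hardly change.

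In round spermatids, KO-labelled libraries had slightly more ribosomal protein mRNA than WT. Of 82 members 34 were called higher and 5 lower (21 and 4 Rpl, 13 and 1 Rps symbols), beside 19.4% and 12.6% of all tested genes. The median was 0.13 against 0.03 for all genes, and 62 of 82 lay above the median gene. Scaling to the total count gave 25 higher and 9 lower, beside 14% and 19.5%, and medians of 0.04 against -0.06, with 61 of 82 above the median gene. No member changed more than 2-fold, and the median of the 34 called higher was 0.32. Spermatid markers were called higher in 9 and lower in 0 of 16 (3 and 2 after total-count scaling), spermatocyte markers in 3 and 5 of 14 (1 and 6) and spermatogonia markers in 4 and 0 of 12 (0 and 0). Sertoli cell markers counted 0 and 6 of 13 (0 and 7), with a summed signal that went from 535 and 531 to 361 and 371, macrophage markers 5 and 0 of 12 (5 and 1), and peritubular and vascular markers 4 and 1 of 10 (4 and 1). Their part in the result was not tested.

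Rps14, a protein of the small subunit platform, was at 1196 and 1237 in round WT and at 1615 and 1827 in round KO-labelled libraries. That difference was 0.50 (SE 0.06, adjusted p = 1e-05; total-count 0.41), larger than the spread within either group. Rps15, of the small subunit head, went from 1023 and 1045 to 1405 and 1381, by 0.43 (adjusted p = 8.2e-07; total-count 0.34). Rpl13 and Rpl18, of the large subunit, rose by 0.43 and 0.41 (total-count 0.34 and 0.32). Rpl22l1, a paralog of the large subunit protein Rpl22, had the largest called change at 0.56 (adjusted p = 0.025). The call was lost after total-count scaling (0.47, adjusted p = 0.0527), with library sizes that leave out the top 50 genes (adjusted p = 0.0539) and without any 1 of the 4 round libraries (adjusted p of 0.0657 to 0.183).

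The 5 members called lower were Rpl21, Rpl10l, Rpl37, Rps13 and Rpl11. Rpl21 was at 2212 and 2404 in round WT and at 1783 and 1752 in round KO-labelled libraries, a change of -0.38 (SE 0.04, adjusted p = 1.1e-05; total-count -0.47), and Rpl10l went from 1542 and 1470 to 1243 and 1128, a change of -0.35 (adjusted p = 0.00043; total-count -0.44). Rpl37, Rps13 and Rpl11 changed by -0.22, -0.21 and -0.18 (total-count -0.31, -0.30 and -0.27). Without round WT replicate 2 only 2 members were called lower and without round KO-labelled replicate 2 only 3: Rpl37 and Rpl11 lost the call in both cases, and Rps13 in the first.

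In elongating spermatids the split of the members turned on the scaling. On the deposited scale a larger group was higher and a smaller group lower in KO-labelled libraries. After total-count scaling only 4 members stayed called higher, and most members were called lower. Of 82 members 41 were called higher and 27 lower (24 and 17 Rpl, 17 and 10 Rps symbols), beside 27.3% and 27.7% of all tested genes. After total-count scaling 4 were higher and 67 lower, beside 8.89% and 62.8% of all genes. The median was 0.14 against -0.07 for all genes (-0.43 against -0.61), and 53 of 82 lay above the median gene (51 after total-count scaling). None was called more than 2-fold higher and 6 were called more than 2-fold lower. The share of all tested genes beyond 2-fold is not given here, so these counts have no background beside them.

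Rps24, a small subunit protein, was at 11282 and 11093 in elongating WT and at 19111 and 18633 in elongating KO-labelled libraries. The log2 change was 0.75 (SE 0.03, adjusted p = 9.5e-11), and it was 0.19 after total-count scaling. Rpl12, at the base of the P stalk, went from 2935 and 2759 to 5099 and 4996, by 0.83 (SE 0.04, adjusted p = 5.1e-10; total-count 0.26), and Rps20 from 13515 and 13311 to 22132 and 22023, by 0.72 (adjusted p = 1.5e-09; total-count 0.16). Rps15, Rpl31 and Rps7 were higher by 0.68, 0.63 and 0.62 on the deposited scale and by 0.12, 0.07 and 0.05 after total-count scaling. Rps24, Rpl12, Rps20 and Rps15 were the members that stayed called higher on both scales.

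Within the P stalk, Rplp0 was at 12334 and 12071 in elongating WT and at 17416 and 17510 in elongating KO-labelled libraries, higher by 0.52 (SE 0.03, adjusted p = 5.9e-09), with a total-count value of -0.05. Rplp1 was higher by 0.38 (total-count -0.19), and Rplp2, at 1366 and 1399 against 1433 and 1642, gave 0.15 with an adjusted p of 0.066 (total-count -0.41). All 3 lay above the median gene, a place that the scaling can hardly change.

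Rps14 reversed the direction it had in round cells. It was at 2047 and 2039 in elongating WT and at 890 and 862 in elongating KO-labelled libraries, a change of -1.22 (SE 0.06, adjusted p = 1.2e-10) that was -1.78 after total-count scaling. Both KO-labelled libraries lay at less than the level of any other library for this gene. Rpl22l1 went from 116 and 115 to 38.8 and 60.3, by -1.24 (SE 0.18, adjusted p = 2.8e-05; total-count -1.78), on 90, 80, 20 and 32 reads. Rps27l went from 91.5 and 96.6 to 25.2 and 47.1, by -1.42 (SE 0.21, adjusted p = 4.6e-05; total-count -1.94), on 71, 67, 13 and 25 reads. Rpl30 was called lower at -1.39 (adjusted p = 0.044) on 15, 16, 3 and 5 reads, and the call was lost with a pseudocount of 0.5, with DESeq2 and without any 1 of 5 of the 8 libraries, at adjusted p of 0.0609 to 0.171.

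Rpl5 and Rpl11 bind the 5S ribosomal RNA, and when ribosome assembly is disturbed this particle is known to inhibit Mdm2, which stabilises p53. The pair moved apart. Over the 4 groups Rpl5 was at 952 and 961, 1230 and 1148, 624 and 636, and 403 and 375. It thus changed by 0.31 (adjusted p = 0.0011; total-count 0.22) in round and by -0.69 (SE 0.06, adjusted p = 1.5e-07; total-count -1.25) in elongating cells. Rpl11 was at 1707 and 1833, 1635 and 1499, 3621 and 3689, and 5033 and 5032 in the same order. Its changes were -0.18 (adjusted p = 0.011; total-count -0.27) and 0.46 (adjusted p = 1e-06; total-count -0.10), so its direction in elongating cells turned with the scaling and that of Rpl5 did not.

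**Figure D3:**
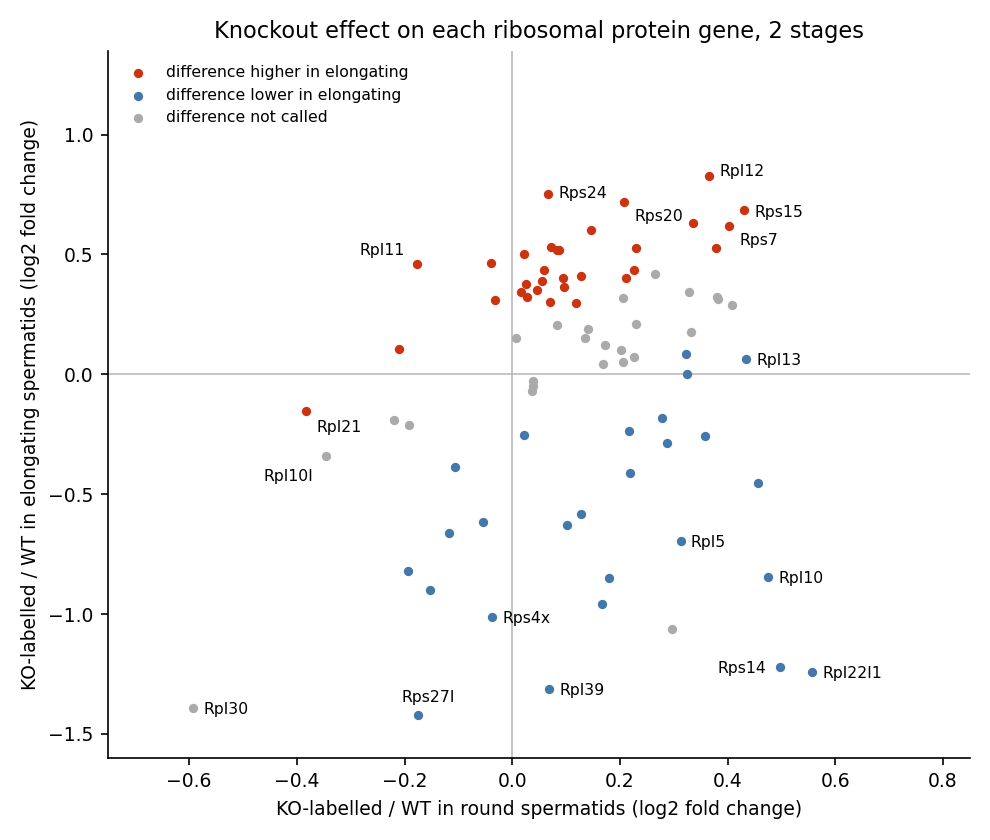
Log2 fold change of KO-labelled against WT in round (horizontal) and elongating (vertical) spermatids on the deposited scale, 1 point per tested ribosomal protein gene; red and blue mark genes whose change was higher or lower in elongating than in round cells by the test of the difference, grey those not called. Rps14 and Rpl22l1 lie at 0.50 and 0.56 in round and at -1.22 and -1.24 in elongating cells, while Rps24 lies at 0.07 and 0.75; total-count scaling lowers the elongating values, to 0.19 for Rps24.

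The change from WT to KO-labelled cells differed between the 2 stages for many members, in both directions on the deposited scale. The difference was higher in elongating cells for 31 and lower for 26 of 82, beside 19.3% and 17.5% of all tested genes, and for 1 and 64 after total-count scaling, beside 5.47% and 45.1%. The median difference was -0.02 against -0.04 for all genes, and -0.49 against -0.49 after total-count scaling. Called higher at both stages were 21 members, beside 12.2% of all tested genes, and 3 after total-count scaling, beside 4.67%. Called higher in round and lower in elongating cells were 8, beside 2.71% of all genes, and 18 after total-count scaling, beside 5.35%; among the 8 were Rpl10, Rpl22l1, Rpl5, Rps14 and Rps4l. Rpl10l, Rpl21 and Rpl37 were called lower at both stages, beside 6.36% of all genes (8 members after total-count scaling, beside 16.3%). Rpl11 alone was called lower in round and higher in elongating cells, beside 2.19% of all genes, and no member was after total-count scaling, beside 0.587%. For Rps14 the difference was -1.72 (SE 0.08, adjusted p = 2.1e-09; total-count -2.19), and for Rps24 it was 0.69 (SE 0.05, adjusted p = 4.4e-08; total-count 0.21).

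The X-linked members and their autosomal paralogs have closely related sequences. Rpl39 lies at chrX:37082520-37085402 on the minus strand and Rpl39l at chr16:10170226-10174911 on the plus strand (GRCm38). Their coding sequences are shown to give how far the pair differs, although they cover only part of each transcript: both hold 153 bases without the stop codon, 130 of them identical (85.0%), and the 23 that differ are in capitals, read from GENCODE M21 transcripts.
Rpl39: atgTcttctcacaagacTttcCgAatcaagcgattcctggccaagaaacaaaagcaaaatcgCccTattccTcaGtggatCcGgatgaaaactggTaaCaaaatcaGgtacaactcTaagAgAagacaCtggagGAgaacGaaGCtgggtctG
Rpl39l: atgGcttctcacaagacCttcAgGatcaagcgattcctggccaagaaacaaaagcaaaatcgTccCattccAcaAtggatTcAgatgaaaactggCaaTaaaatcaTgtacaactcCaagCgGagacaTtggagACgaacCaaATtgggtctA
The longest identical run is 38 bases. The coding sequences of Rpl10 and Rpl10l were 84.7% identical, those of Rpl36a and Rpl36al 87.7%. Rps4l has no annotated coding sequence, and its transcript matched the Rps4x coding sequence at 79.6% of positions.

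The autosomal genes had the higher signal in round cells, with more near-identical pseudogenes on the X-linked side (9 for Rpl39 and 0 for Rpl39l, 8 for Rpl10 and 1 for Rpl10l, 7 for Rps4x and 0 for Rps4l, 3 for Rpl36a and 1 for Rpl36al), whose part in these levels was not tested. Per kilobase of transcript, Rpl39l was at 3575 and Rpl39 at 50.7 in round WT cells, Rpl10l at 1472 and Rpl10 at 91.9, Rps4l at 1351 and Rps4x at 15.4, and Rpl36al at 932 and Rpl36a at 113. In elongating WT cells the X-linked genes were nearer to their paralogs. Rps4x was at 19.1 and 10.9 in round WT and at 317 and 293 in elongating WT libraries, a change of 4.31 (SE 0.24, adjusted p = 2.1e-10; total-count 2.89). Rpl10 was at 68.7 and 78.1 against 343 and 337, a change of 2.20 (SE 0.12, adjusted p = 9.4e-11; total-count 0.74). The round and elongating WT libraries of both genes were far apart, and both changes were positive on both scales.

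Rpl39 was at 32.5 and 29.7 in round WT and at 99.3 and 88.0 in elongating WT libraries, higher by 1.56 (adjusted p = 2.4e-05), which was not called after total-count scaling (0.12). Rpl36a, at 52.8 and 56.3 against 92.8 and 73.5, was called higher by 0.59 (adjusted p = 0.011) as deposited, with -0.86 after total-count scaling, and the call was lost without round WT replicate 1 or elongating WT replicate 1 at adjusted p of 0.0609 and 0.102. Among the paralogs Rpl39l was higher by 0.58 as deposited, with -0.89 after total-count scaling, and Rpl36al gave 0.07, which was not called (total-count -1.40).

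In elongating KO-labelled libraries 3 of the 4 X-linked genes were called lower than in WT, beside 27.7% of all tested genes. After total-count scaling it was 4 of 4, beside 62.8%. Rps4x was at 140 and 162 (72 and 86 reads), against 317 and 293 in WT (246 and 203 reads), a change of -1.01 (SE 0.24, adjusted p = 0.0026; total-count -1.57). Rpl39 was at 29.1 and 47.1 (15 and 25 reads) against 99.3 and 88.0 (77 and 61 reads), a change of -1.31 (SE 0.24, adjusted p = 0.00029; total-count -1.84). Rpl10 was at 182 and 196 against 343 and 337, by -0.84 (SE 0.12, adjusted p = 2e-05; total-count -1.40). In these 3 genes no KO-labelled library reached a WT library.

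Rpl36a gave -0.45 with an adjusted p of 0.059 (total-count -0.996). In round KO-labelled against WT cells 19.4% of all tested genes were called higher and 12.6% lower. Of the 4 genes only Rpl10 was called there, at 0.48 (adjusted p = 0.0056, total-count 0.39), from 68.7 and 78.1 to 99.2 and 105. That call was lost without round WT replicate 1 or round KO-labelled replicate 2, at adjusted p of 0.0710 and 0.0531. The differences between the stages were called for all 4, at -1.38 for Rpl39, -1.32 for Rpl10, -0.98 for Rps4x and -0.91 for Rpl36a, and lay further down after total-count scaling. All 4 were called lower on both scales, beside 17.5% of all tested genes (45.1% after total-count scaling).

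The paralogs differed among themselves. Rpl39l was at 2906 and 2956 in elongating WT and at 2901 and 2967 in elongating KO-labelled libraries, a change of 0.00 (adjusted p = 0.98; total-count -0.56), after a rise of 0.32 (adjusted p = 1.7e-05; total-count 0.24) in round cells. Rpl36al was higher by 0.32 (adjusted p = 0.0011) as deposited and gave -0.24 after total-count scaling, Rpl10l was lower by -0.34 (adjusted p = 0.00021; total-count -0.90), and Rps4l changed by -0.18 (adjusted p = 0.032; total-count -0.74). The Rps4l call was lost with DESeq2, with the 4 elongating libraries alone and without any 1 of 4 of the 8 libraries, at adjusted p of 0.0551 to 0.264. Of the 7 tested paralogs 4 were called higher and 1 lower in round cells and 1 higher and 5 lower in elongating cells; of 7 tested partners it was 1 and 0, and 0 and 6. After total-count scaling the paralogs counted 3 and 1, and 0 and 7, and the partners 1 and 2, and 0 and 7, where 62.8% of all genes were lower in elongating cells against 27.7% as deposited. The round-cell background was 19.4% higher and 12.6% lower as deposited, and 14% and 19.5% after total-count scaling. In elongating cells 27.3% of all genes were higher as deposited and 8.89% after total-count scaling. Rpl7, Rpl3 and Rpl22, autosomal partners, were lower by -0.25, -0.39 and -0.21 (total-count -0.82, -0.95 and -0.77). The Rpl22 call was lost with DESeq2 and without any 1 of 6 libraries, at adjusted p of 0.0552 to 0.1497.

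Markers of other cells also differed between these libraries, in directions that depended on the cell type and the stage. The counts below stand beside 41.7% of all tested genes called higher and 40.2% called lower in elongating against round WT cells. In elongating KO-labelled against WT cells the shares were 27.3% and 27.7% (8.89% and 62.8% after total-count scaling). The 12 macrophage and leukocyte markers summed to 138 and 169, 224 and 206, 9743 and 9745, and 4282 and 4227 over the 4 groups; 12 of 12 were called higher in elongating than in round WT cells and 12 of 12 lower in elongating KO-labelled than in WT cells. The 4 X-linked genes summed to 173 and 175, 231 and 219, 852 and 792, and 415 and 462 in the same order. Of 13 tested Sertoli cell markers 13 were higher in elongating than in round WT cells and 7 lower and 0 higher in elongating KO-labelled cells, with sums of 7875 and 7997 against 5613 and 5642. Of 10 peritubular and vascular markers 9 were higher in elongating than in round WT cells, and 5 were higher and 2 lower in elongating KO-labelled cells, with sums of 353 and 378, 488 and 503, 2774 and 2695, and 4627 and 4621 over the 4 groups. The 3 Leydig cell markers were not called in either knockout comparison. No macrophage or Sertoli marker in the table was at 0 in both libraries of an elongating group. The part of these cells in the results on X-linked and other members was not tested. Of 16 spermatid markers 14 were higher and 2 lower in elongating KO-labelled cells (9 and 5 after total-count scaling). Spermatocyte markers counted 3 higher and 8 lower of 14 in that comparison (0 and 10), and spermatogonia markers 2 and 6 of 12 (1 and 8). The part of these germ cells in the results was not tested either.

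**Figure D4:**
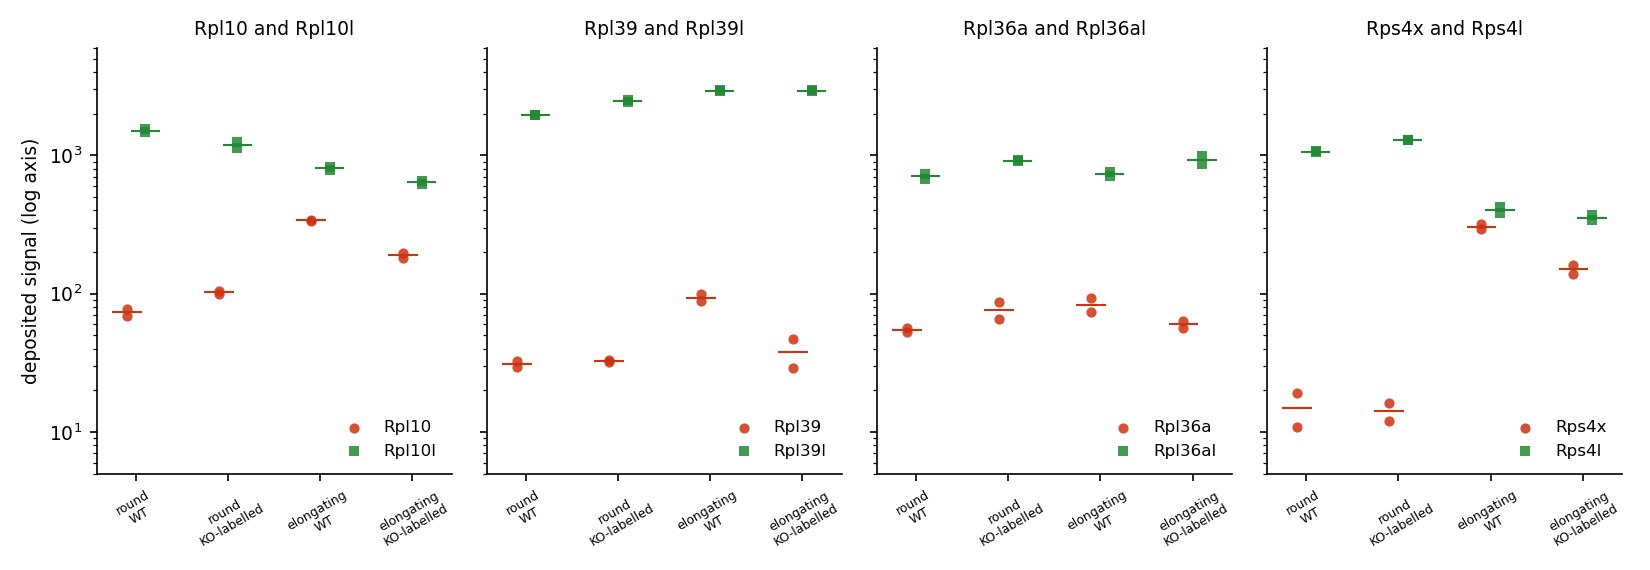
Deposited signal on a log axis for the 4 X-linked ribosomal protein genes (red circles) and their autosomal paralogs (green squares); each point is a library and each line a group mean of 2. In wild type Rps4x is at 19.1 and 10.9 in round and at 317 and 293 in elongating libraries, and at 140 and 162 in the KO-labelled elongating ones, while Rpl39l stays between 1965 and 2967 in all 8.

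Genes that make ribosomes mostly lay below the median gene in elongating against round WT cells, as did 33 of 43 biogenesis factors and 12 of 14 RNA polymerase I genes on the deposited scale. After total-count scaling it was 34 and 12, nearly the same by construction. Of 43 tested ribosome biogenesis factors 7 were called higher and 29 lower in elongating than in round WT cells, with a median of -0.73 (2 and 41, median -2.20, after total-count scaling), beside 41.7% and 40.2% of all genes (19.5% and 68.8%), and of 14 RNA polymerase I genes 1 and 11, with a median of -0.97 (0 and 14, -2.42). In elongating KO-labelled against WT cells the biogenesis factors counted 7 higher and 22 lower (3 and 39 after total-count scaling) and the polymerase genes 1 and 6 (0 and 11), beside 27.3% and 27.7% of all genes (8.89% and 62.8%). In round cells they counted 10 and 3, and 1 and 0 (7 and 7, and 1 and 0), beside 19.4% and 12.6% of all genes (14% and 19.5%). Among the factors called higher in KO-labelled than in WT cells was Rrp12, which works in the export of ribosomal subunits. It was at 744 and 734 in WT against 3175 and 3212 in KO-labelled elongating libraries, a rise of 2.11 (adjusted p = 8.3e-14, total-count 1.55). Eftud1, which acts in the last maturation steps of the large subunit, was up by 1.159 in round and 1.28 in elongating KO-labelled cells (total-count 1.07 and 0.72). Rrp9 rose by 1.20 (adjusted p = 0.00039; total-count 1.11) in round cells.

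Most other mRNAs known to start with a pyrimidine tract lay above the median gene: 11 of 16 in round and 12 of 16 in elongating KO-labelled against WT cells, and 11 of 16 in elongating against round WT cells. Total-count scaling left these counts the same, nearly by construction. By the test, 10 of 16 were higher and 3 lower in elongating than in round WT cells, beside 41.7% and 40.2% of all genes, with a median of 0.95 (5 and 10, median -0.52, after total-count scaling, where 68.8% of all genes were lower), and 10 higher and 3 lower in elongating KO-labelled against WT cells, with a median of 0.41 (2 and 10, -0.15). In round cells 5 were higher and 0 lower, beside 19.4% and 12.6% of all genes (2 and 3 after total-count scaling, beside 14% and 19.5%). In elongating KO-labelled against WT cells the shares of all genes were 27.3% and 27.7% (8.89% and 62.8% after total-count scaling). Eef2, the factor that moves the ribosome along the mRNA, was higher by 0.70 in elongating KO-labelled cells (adjusted p = 7.1e-12; total-count 0.14), and Eef1a1, which brings in the aminoacyl-tRNA, by 0.28 in round KO-labelled cells (total-count 0.19). Hnrnpa1 was called lower in elongating KO-labelled cells at -1.12 (adjusted p = 0.02; total-count -1.47), but not with edgeR or DESeq2, at adjusted p of 0.110 and 0.233.

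Among 19 genes that control ribosomal protein mRNAs, 4 were higher and 3 lower in round and 7 higher and 3 lower in elongating KO-labelled cells (4 and 6, and 3 and 12, after total-count scaling). Of all tested genes 27.3% were higher and 27.7% lower in elongating cells. After total-count scaling the shares of all genes were 14% and 19.5% in round and 8.89% and 62.8% in elongating cells. Their medians of -0.07 and -0.09 lay near those of all genes, 0.03 and -0.07, and the shares called in round cells were near the background of 19.4% and 12.6%. Mtor, the kinase through which the tract acts, was at 4276 and 4444, 7365 and 7506, 3006 and 3161, and 8688 and 8757 over the 4 groups. It rose by 0.77 (adjusted p = 1.5e-09; total-count 0.68) and by 1.5 (adjusted p = 3.2e-13; total-count 0.94). Myc, a transcription factor of ribosome genes, was at 19.3 and 20.2 in elongating WT and at 54.3 and 73.5 in elongating KO-labelled libraries, higher by 1.63 (adjusted p = 0.0062). That call was lost after total-count scaling (1.06, adjusted p = 0.069) and with library sizes that leave out the top 50 genes (adjusted p = 0.0501). In round cells Myc was among the genes called higher, on few reads. That round call was lost with a pseudocount of 10 (0.32, adjusted p = 0.24) and with DESeq2 (adjusted p = 0.10).

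A pair of ribosomal components whose symbols fall outside the pattern is given beside the members. Fau, which encodes a fusion with a small subunit protein, was higher by 0.24 (adjusted p = 0.0013; total-count 0.15) in round KO-labelled cells, and Gnb2l1, the scaffold protein Rack1 of the small subunit, was higher by 0.43 in round and lower by -0.43 in elongating KO-labelled cells (total-count 0.34 and -0.99).

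**Figure D5:**
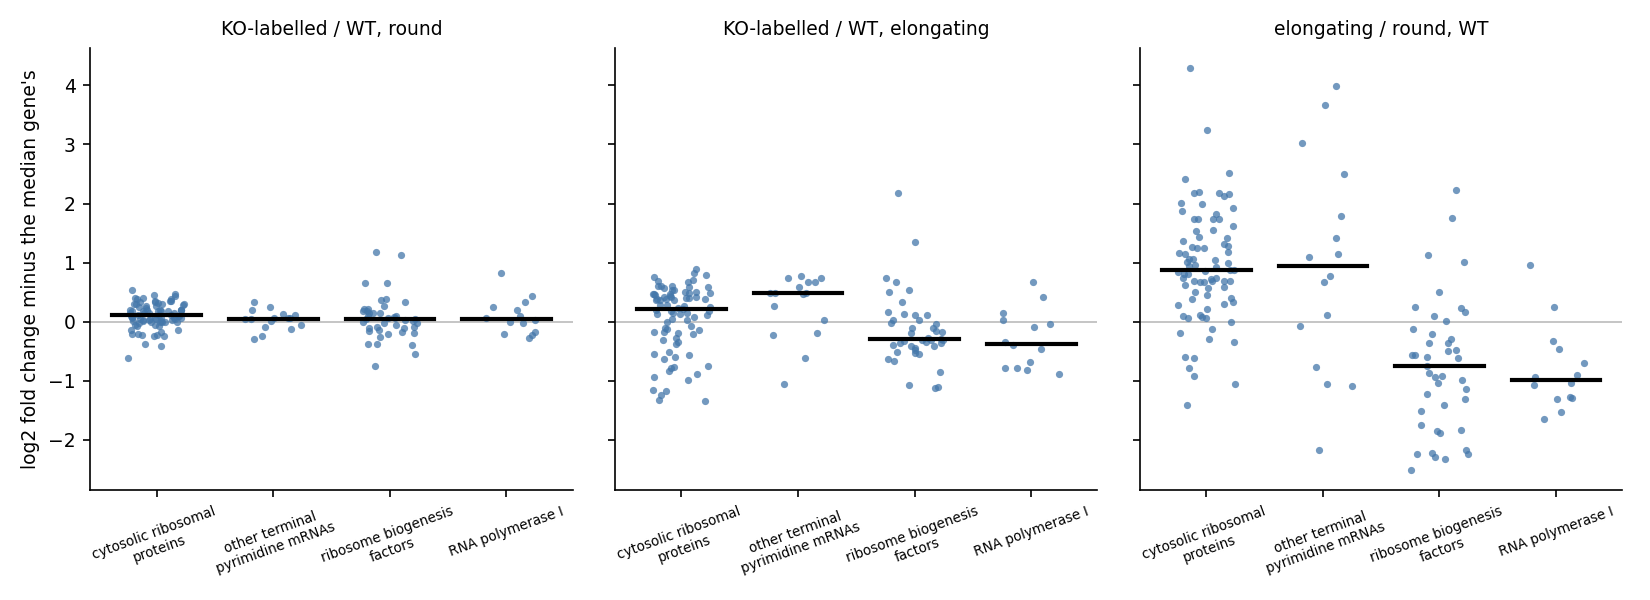
Log2 fold change minus the median of all tested genes, on the deposited scale, for the ribosomal protein genes and 3 other lists in 3 comparisons; points are genes and lines list medians. In elongating against round WT cells the ribosomal proteins (median 0.88) and other pyrimidine tract mRNAs (0.95) lie above the median gene, while biogenesis factors (-0.73) and RNA polymerase I genes (-0.97) lie below it. After total-count scaling the unsubtracted medians of the first pair are -0.58 and -0.52 and that of all tested genes is -1.42. The order is thus kept, nearly by construction.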

How the data were processed

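Poly A RNA-seq libraries of 8 spermatid samples were analysed in 4 groups of 2, grouped by the stage, genotype label and number in their titles. Tools listed in the submitters' processing notes are DESeq 1.16.0, HTSeq 0.6.0, TopHat2 2.0.10 and CASAVA 1.8.2, with the mouse builds mm10 and GRCm38. No source used here gives the gene annotation or the treatment of reads that match several places. The deposited signal per gene is, by its steps, a whole read count that the authors scaled by a size factor: 100% of values came out as whole reads at a tolerance of 1e-06.

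Genes at 10 or more in at least 2 libraries (15685 of 16349) were tested with limma 3.58.1 (R 4.3.3, trended empirical Bayes) on log2(value + 1), with 4 group means, 4 residual degrees of freedom and a two-sided Benjamini-Hochberg adjusted p under 0.05. Called members did not overlap between groups, which is no evidence beyond the call itself. The share without overlap among all called genes is not given here. Total counts, library sizes without the 50 most abundant genes, pseudocounts of 0.5 and 10, no filter, a mean of at least 100, edgeR 4.0.16 (with TMM) and DESeq2 1.42.0 on recovered reads, the 4 libraries of a contrast, a replicate block and leaving out each library were alternatives. The fit was also run on simulated data, with a result that is not given here.

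Named members were the called genes with the largest changes (6 up and 6 down per knockout comparison, 4 and 4 in the others), all P stalk, 5S particle, X-linked, paralog and partner genes, the 2 largest changes of every other list, and Carm1; genes named outside this rule were chosen after their values were seen. Some genes that the rule allows are not reported here. The members and lists were chosen with earlier results of these data known. Numbers 1 and 2 do not pair the libraries: their differences correlated between groups at -0.09 to 0.03.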

Additional observations from a re-analysis of the deposited data

Results flagged for a closer look

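For 26 named members the change from WT to KO-labelled cells, called the effect here, differed between the stages by the interaction term (limma, adjusted p under 0.05). Values are the log2 effect in elongating minus that in round spermatids on the deposited scale. Total-count scaling lowers every value listed here, as it lowers the median of all tested genes from -0.04 to -0.49. Groups of 2 libraries could not be examined for outlying samples.

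Among the X-linked genes the difference was -1.38 for Rpl39, -1.32 for Rpl10, -0.98 for Rps4x and -0.91 for Rpl36a. Paralogs gave -1.80 for Rpl22l1, -1.25 for Rps27l, -0.75 for Rpl7l1, -0.46 for Rps4l and -0.32 for Rpl39l. Other members whose effect was lower in elongating cells were Rps14 at -1.72, Rpl5 at -1.01, Rpl13 at -0.37, Rpl3 at -0.28 and Rpl7 at -0.27.

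The effect was higher in elongating cells for Rps24 at 0.69, Rpl11 at 0.64, Rps20 at 0.51, Rps12 at 0.50, Rpl12 at 0.46, Rplp0 at 0.43, Rplp1 at 0.35, Rps13 at 0.32, Rpl31 at 0.29, Rps15 at 0.25, Rpl21 at 0.23 and Rps7 at 0.22. For Rplp0, Rplp1, Rpl12, Rpl31, Rps15, Rpl21, Rps13 and Rps7 the total-count value was below 0. For Rpl11, Rps20 and Rps12 it was 0.16, 0.0373 and 0.0285 and no longer called, at adjusted p of 0.052, 0.62 and 0.76. Rps24 kept the call at 0.21.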

How the results depend on the processing

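Scaling changed the results most, and with 2 libraries a group the spread rests on 4 residual degrees of freedom. With total-count scaling and with library sizes without the 50 most abundant genes, in this order, round KO-labelled against WT gave 9 and 9 lower members and medians of 0.042 and 0.0436. Elongating KO-labelled against WT gave 4 and 7 higher, 67 and 60 lower and medians of -0.43 and -0.37. Elongating against round gave 18 and 31 higher, 58 and 43 lower and medians of -0.58 and -0.16 in WT, and 13 and 24 higher, 62 and 53 lower and medians of -1.01 and -0.53 in KO-labelled cells. The difference gave 1 and 2 higher, 64 and 57 lower and medians of -0.49 and -0.43. Without those 50 genes the read shares over the 4 groups were 1.04% and 1.04%, 1.08% and 1.07%, 1.27% and 1.25%, and 1.12% and 1.11%. With edgeR the stage medians were 0.76 in WT and 0.76 in KO-labelled cells. Reversed values in elongating KO-labelled against WT were, in the same order, Rplp0 -0.0467 (total count only), Rplp1 -0.19 and -0.13, Rplp2 -0.41 and -0.35, Rpl36al -0.24 and -0.18, Rpl39l -0.56 and -0.50, and Rpl11 -0.10 and -0.0418. In elongating against round WT they were Rplp0 -0.40, Rpl22 -0.20 and Rpl11 -0.42 (total count only), Rplp2 -0.65 and -0.23, Rpl36al -1.40 and -0.98, Rpl39l -0.89 and -0.47, Rpl3 -1.06 and -0.64, Rpl7 -0.83 and -0.40, and Rpl36a -0.86 and -0.44. Leaving out each library gave 26 to 36 higher and 2 to 6 lower in round, 38 to 41 and 22 to 27 in elongating, 63 to 66 and 9 in the WT stage, 55 to 57 and 16 to 17 in the KO-labelled stage and 25 to 30 and 22 to 27 in the difference; the lows of 2 and 3 in round came without round WT replicate 2 and without round KO-labelled replicate 2. With the replicate block, a term for the library number, the counts were 33 and 5, 41 and 27, 65 and 9, 55 and 17, and 30 and 26.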
